A study of Homo sapiens with 10 samples.

Results

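The nuclear receptor superfamily was described in PC3 cells, an epithelial prostate cancer cell line established from a bone metastasis, after treatment with GW3965, a synthetic agonist of the liver X receptors (LXRs). The members were the 46 nuclear receptor genes of a fixed list, found by gene name among the 62656 genes of the deposited table, and they fall into 21 families. Cells deprived of serum overnight received GW3965 at 1 µM, or DMSO as the vehicle, and RNA was taken after 24 h in RPMI-1640 with glutamine. Each condition had 5 libraries and the only difference given between the conditions was the agonist. All libraries came from a single line, and the labels do not say whether replicates were separate cultures, so p-values measure only the spread between these samples. The study asked what activation of the LXRs changes in prostate tumor cells, and the comparison below asks which receptors these cells transcribe and whether the agonist changed their RNA.

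Nuclear receptors are transcription factors, most of which bind DNA through a zinc finger domain and are switched by small lipophilic ligands held in a C-terminal domain. LXRalpha (NR1H3) and LXRbeta (NR1H2) are sensors of oxysterols, and each binds DNA as a heterodimer with a retinoid X receptor (RXRalpha, RXRbeta or RXRgamma). The same RXRs partner the retinoic acid, thyroid hormone, vitamin D and peroxisome proliferator-activated receptors (PPARs). Steroid receptors bind as homodimers, and the orphan receptors have no agreed physiological ligand.

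The libraries held from 30432981 to 41639839 reads, recovered from the deposited RPKM values. The 7SL RNA genes took 12.0% to 23.2% of them. On the first principal component, which held 41.4% of the variance, DMSO library 1 and GW3965 libraries 1 and 2 stood apart from the other 7. Their scores were 17.7 to 19.7, against -21.9 to 3.91. The other 7 were themselves spread, with DMSO library 4 lowest at -21.9 and GW3965 library 4 next at -11.8. Fits without the 3 libraries kept DMSO library 4. The epithelial keratin genes KRT18 and KRT8 averaged 49.6 and 36.6 RPKM, whereas CDH1 (E-cadherin) averaged 0.285 RPKM. KLK3, the prostate-specific antigen gene of luminal cells, had 0 reads. Summed leukocyte markers lay between 0.00600 and 0.0962 RPKM in DMSO and between 0.0201 and 0.0728 RPKM in GW3965, and 0 of the 3 averaged 0.5 RPKM. Of 3 endothelial markers, PECAM1 averaged 0.604 RPKM, and CDH5 and VWF averaged 0.00528 and 0.00482 RPKM. Their sums were 0.584 to 0.672 RPKM in DMSO and 0.411 to 0.765 RPKM in GW3965. Of 4 fibroblast markers, COL1A1 averaged 0.928 RPKM, PDGFRA 0.160 RPKM, COL1A2 0.00854 RPKM and DCN 0.00476 RPKM. Their sums were 1.06 to 1.29 RPKM in DMSO and 0.823 to 1.20 RPKM in GW3965. In a bulk sample, fewer cells of a type and less RNA per cell cannot be told apart.

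The start regions of both LXR genes are shown with that of ABCA1, the cholesterol efflux pump gene with the largest rise among the tested LXR target genes. They are RefSeq promoters on GRCh38.p14, from 250 bases before to 50 bases after the start that the RefSeq table gives, 5′ to 3′ on the gene's strand. The window of NR1H2 was chr19:50376207-50376506 (plus strand), that of NR1H3 chr11:47248050-47248349 (plus strand) and that of ABCA1 chr9:104928106-104928405 (minus strand). The NR1H2 window lies inside the gene as GENCODE 29 draws it, which begins further upstream, so the region at that earlier start was not searched. Capitals mark AGGTCA, the hexamer that many nuclear receptors bind, in NR1H3. In ABCA1 they mark a direct repeat with a spacing of 4 bases, the arrangement bound by LXR with RXR, searched as GGTNA, 5 bases of any kind and GGTCA, and read on the other strand.
NR1H2: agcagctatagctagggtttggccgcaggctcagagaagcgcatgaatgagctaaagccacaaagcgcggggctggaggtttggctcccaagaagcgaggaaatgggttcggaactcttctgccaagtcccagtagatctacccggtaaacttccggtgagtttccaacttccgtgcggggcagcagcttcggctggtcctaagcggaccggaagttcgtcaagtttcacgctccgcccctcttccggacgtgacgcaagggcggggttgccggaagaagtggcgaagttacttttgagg
NR1H3: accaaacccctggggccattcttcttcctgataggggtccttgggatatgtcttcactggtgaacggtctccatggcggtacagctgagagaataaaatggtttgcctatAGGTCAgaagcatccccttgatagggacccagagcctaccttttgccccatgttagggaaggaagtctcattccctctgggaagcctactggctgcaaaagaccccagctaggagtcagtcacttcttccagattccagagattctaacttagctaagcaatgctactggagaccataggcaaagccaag
ABCA1: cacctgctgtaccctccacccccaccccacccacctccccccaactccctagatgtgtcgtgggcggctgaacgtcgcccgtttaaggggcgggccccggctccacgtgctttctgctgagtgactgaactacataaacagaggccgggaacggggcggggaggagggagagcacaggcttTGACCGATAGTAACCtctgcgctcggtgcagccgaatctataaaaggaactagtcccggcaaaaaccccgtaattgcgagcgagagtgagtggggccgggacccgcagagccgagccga

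The NR1H3 hexamer lay at bases -140 to -135 from the start and the ABCA1 repeat at -69 to -55, and the NR1H2 window held neither. Promoters of 41 of the 46 members were in the table, and NR0B2, VDR, HNF4G, NR2F6 and NR4A2 were missing. AGGTCA on either strand was present in 7 of these 41 (17.1%), against 13.9% of 27305 promoters. The members that held it were NR0B1, RARA, PPARG, NR1H3, NR1H4, RXRG and NR5A2. This repeat, on either strand, was in 0 of the 41 members and in 0.245% of all promoters, and ABCA1 was the only holder among 12 LXR target genes. The strict repeat of AGGTCA, 4 bases of any kind and AGGTCA was in 0 members and in 0.0183% of promoters, and in 0 of the 12 targets. The E-box CACGTG, bound by the circadian clock proteins, was in NR2C1, NR2F2, PGR and NR5A1 (9.76% of the members matched, against 7.43% of all promoters). The cyclic AMP response element TGACGTCA was in NR2E1 and NR6A1 (4.88% against 1.98%). These matches describe the letters of the windows, not binding.

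Of the 46 members, 24 reached the mean of 0.5 RPKM required for testing, and 22 did not. RPKM here is reads per kilobase of gene, scaled by a size factor of each library. 8 members averaged 10 RPKM or more, 14 lay from 1 to 10 RPKM and 2 lay from 0.5 to 1 RPKM. 15 of the 24 were above the median of all tested genes, 3.11 RPKM. The plot of levels shows each library of the 38 members that had reads in all 10 libraries.

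**Figure D1:**
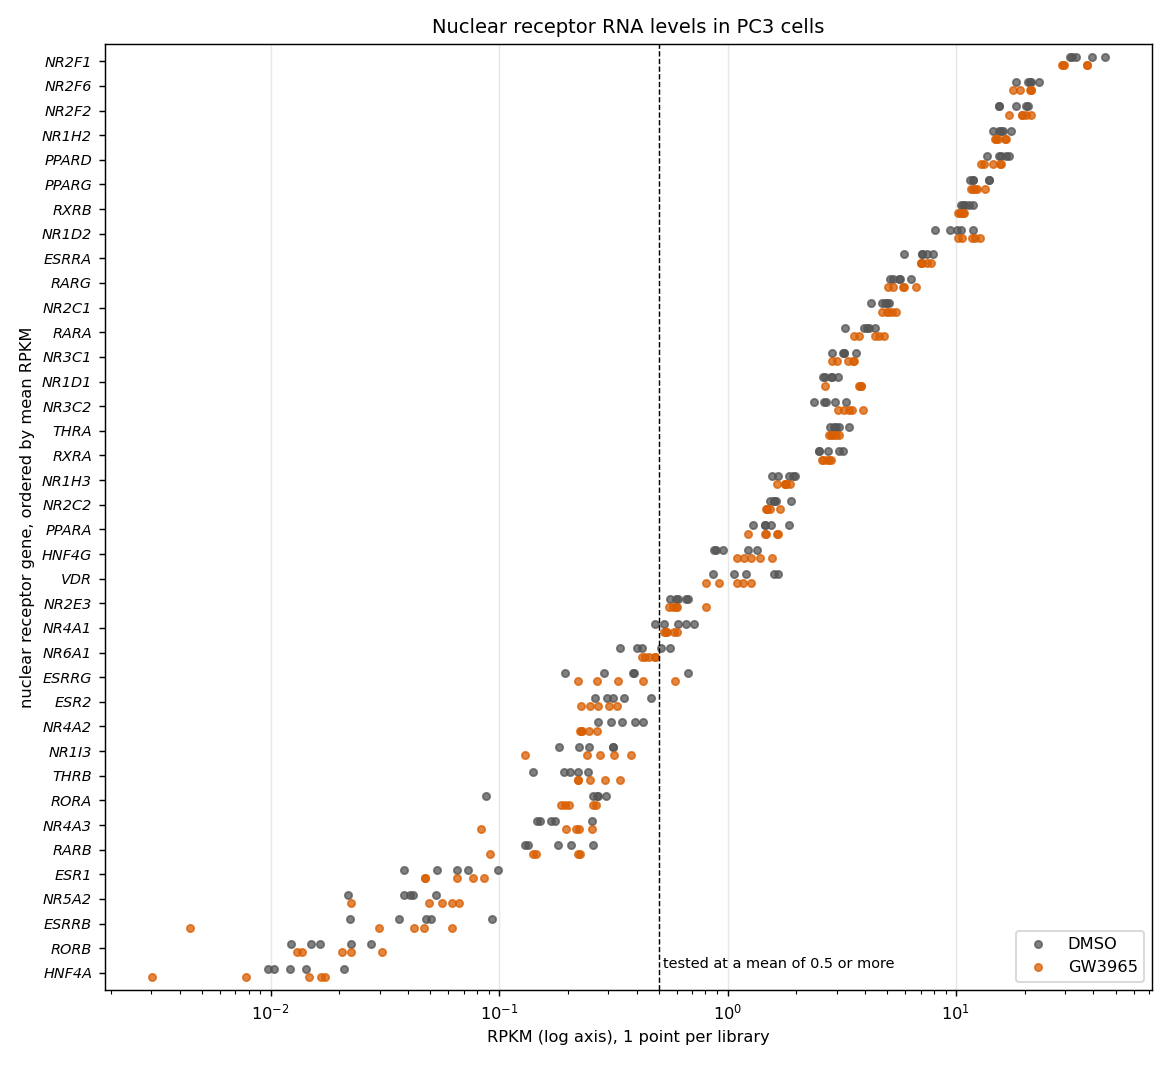
RPKM (log axis) of 38 nuclear receptor genes in the 10 libraries, ordered by mean level, with DMSO in grey and GW3965 in orange and 1 point per library; the dashed line marks 0.5 RPKM. The ranges of neighbours overlap almost everywhere, with gaps after NR2F1, NR1D2 and RXRA among the genes right of the line.

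The COUP transcription factors, orphan receptors that act largely as repressors in development, led the order of deposited RPKM. NR2F1 (COUP-TFI) averaged 34.5 RPKM, NR2F6 20.5 RPKM and NR2F2 (COUP-TFII) 18.7 RPKM. They were followed by NR1H2 at 15.7, PPARD at 15.1, PPARG at 12.5, RXRB at 10.8 and NR1D2 at 10.8 RPKM. Among tested members, the ranges over the 10 libraries separated neighbours only after NR2F1, after NR1D2 and after RXRA. The order also rests on the gene lengths behind the RPKM values. The deposited lengths were 11981 bases for PPARG and 12077 bases for RXRA, whereas their longest principal transcripts in GENCODE 29 were 1850 and 1846 bases. All their exons together covered 4535 and 11083 bases in GENCODE 29. Per kilobase of principal transcript, on the same library scale, PPARG came to 80.7, NR1H2 to 42.0, NR2F1 to 39.4, RXRA to 18.0 and RXRB to 14.5. This second length was chosen after the data were seen, and it puts PPARG and NR1H2 above all 3 COUP-TF genes and RXRA above RXRB. All reads of a gene were divided by it, including any outside the principal transcript. These values therefore show that the order depends on the length, not which order is right.

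Of the 24 tested members, 0 passed the adjusted p threshold of 0.05 in the limma fit over 20402 genes, against 0.157% of all tested genes (32 genes, with 0.147% higher and 0.0098% lower). An unadjusted p under 0.05 was found for 2 members (8.33%), NR1D1 and NR3C2, against 6.99% of all tested genes. The ranges of both conditions overlapped for all 24 members, whereas 1.84% of all tested genes had no overlap (1.35% higher and 0.49% lower). The members' median log2 fold change was -0.02, against 0.0034 over all tested genes, with 11 members higher and 13 lower. Fold changes ranged from -0.24 (VDR) to 0.33 (NR1D1) on the log2(RPKM + 0.1) scale, which understates changes of low genes. The 95% intervals lay within ±0.5 for 21 of the 24 members and within ±1 for all 24. Summed RPKM of the 46 members was 188 ± 7.99 in DMSO and 186 ± 4.90 in GW3965 (SD, n = 5).

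**Figure D2:**
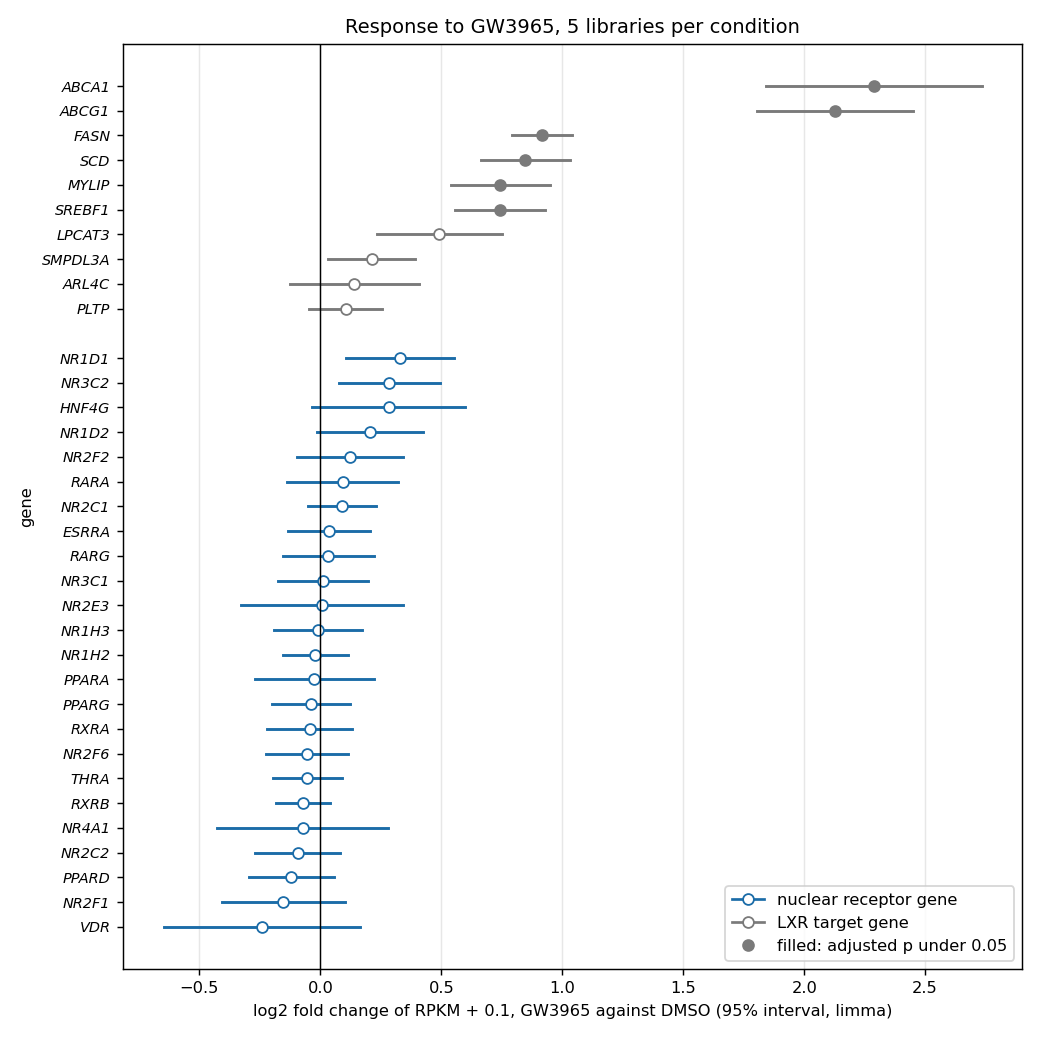
Log2 fold change of GW3965 against DMSO with its 95% interval (limma, 5 libraries per condition) for the 24 tested nuclear receptor genes (blue) and 10 tested LXR target genes (grey); filled points have an adjusted p under 0.05. The receptor genes lie between -0.24 and 0.33, and the 6 filled points are all LXR target genes.

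The LXR target genes were read as a measure of the response to the agonist. Of 17 listed, 10 were tested. All 10 were higher in GW3965 and 6 passed the threshold, and the median log2 fold change of the 10 was 0.74. ABCA1 was at 5.75, 2.51, 2.50, 3.19 and 3.20 RPKM in DMSO and at 19.5, 18.4, 15.4, 14.9 and 14.1 RPKM in GW3965. The conditions did not overlap, and ABCA1 rose by a log2 fold change of 2.29 (SE 0.20, limma adjusted p = 0.00063). ABCG1, another sterol exporter gene, rose by 2.13, and FASN, the fatty acid synthase gene, by 0.91. The others were SCD, a fatty acid desaturase gene (0.85), MYLIP, whose product degrades the LDL receptor (0.74), and SREBF1, the lipogenic transcription factor gene (0.74). PLTP had the lowest value of the list (0.10, adjusted p = 0.840). Without the 3 libraries that stood apart, MYLIP (0.68, limma adjusted p = 0.101) and SREBF1 (0.71, limma adjusted p = 0.0897) no longer passed, at fold changes close to those of all 10 libraries.

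The LXR genes themselves were transcribed at unequal levels. NR1H2 (ENSG00000131408, GRCh38 chr19:50329653-50382982) was at 15.5, 14.5, 15.8, 17.4 and 16.1 RPKM in DMSO libraries 1 to 5 and at 15.0, 15.3, 16.4, 16.5 and 14.8 RPKM in GW3965. The conditions overlapped, with the highest and the lowest library both in DMSO. The log2 fold change of NR1H2 was -0.02 (95% interval -0.15 to 0.11, limma adjusted p = 0.979). NR1H3 (ENSG00000025434, chr11:47248300-47269032) was at 1.57, 1.98, 1.93, 1.66 and 1.85 RPKM in DMSO and at 1.78, 1.79, 1.81, 1.64 and 1.88 RPKM in GW3965. The GW3965 libraries lay inside the DMSO range. Its log2 fold change was -0.01 (interval -0.19 to 0.17, limma adjusted p = 0.990). The direction of neither LXR gene was stable across the alternative settings. NR1H2 supplied 89.8% ± 1.33 of the summed LXR RPKM in DMSO and 89.7% ± 0.836 in GW3965 (SD, n = 5). Its ratio to NR1H3 was 8.90 ± 1.27 and 8.79 ± 0.829. Exons of NR1H3 share 189 bases with ACP2 on the opposite strand, and the strand setting of the counting is not given in the sources used here.

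Among the partners of the LXRs, RXRB and RXRA were transcribed and RXRG had 0 reads in every library, which allows up to 3 reads per library. RXRB was at 11.01, 10.5, 10.8, 11.9 and 11.4 RPKM in DMSO and at 10.4, 10.6, 10.2, 10.8 and 10.8 RPKM in GW3965. The DMSO libraries reached higher, and the ranges overlapped. The log2 fold change of RXRB was -0.07 (interval -0.18 to 0.04, limma adjusted p = 0.853). RXRA was at 2.52, 2.52, 3.06, 3.21 and 2.74 RPKM in DMSO and at 2.61, 2.60, 2.77, 2.83 and 2.72 RPKM in GW3965. All GW3965 libraries fell inside the DMSO range, and the log2 fold change was -0.05 (interval -0.22 to 0.13, limma adjusted p = 0.961). RXRB led as deposited RPKM and by reads, and RXRA led only when all reads were divided by the principal transcript length. RXRB made up 79.8% ± 1.47 of summed RXR RPKM in DMSO (SD, n = 5). Over all 10 libraries, RXRB made up 55.9% of the RXR reads and 44.6% per kilobase of principal transcript. RXRB shares 244 exonic bases with SLC39A7 on the opposite strand. The summed LXR RPKM was 1.27 ± 0.00856 times the summed RXR RPKM in DMSO and 1.31 ± 0.0617 times in GW3965.

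**Figure D3:**
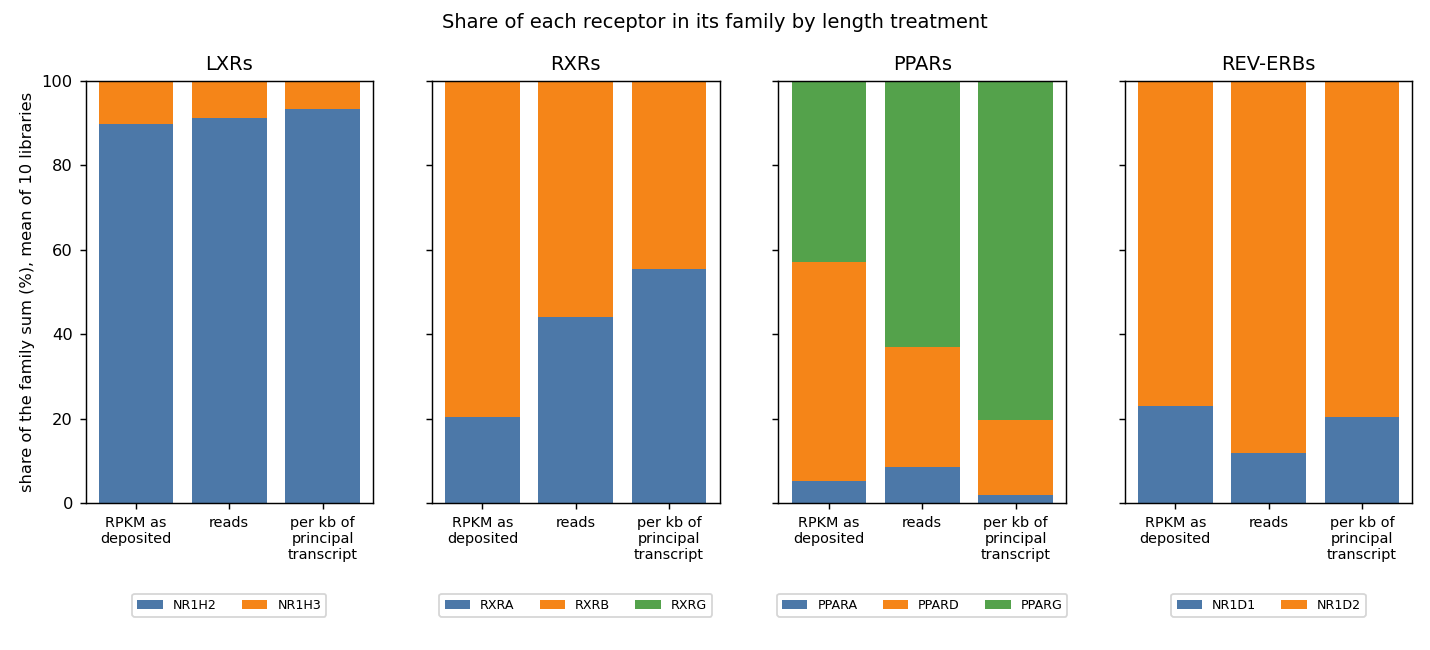
Share of each gene in its family sum (%, mean of 10 libraries) for the LXRs, RXRs, PPARs and REV-ERBs, as deposited RPKM, as reads and per kilobase of principal transcript. For the last, all reads of a gene were divided by its principal transcript length. NR1H2 stays at 89.7% or more of the LXR sum, whereas the leading RXR and PPAR gene changes with the length.

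The PPARs are fatty acid sensors that also pair with RXRs. PPARD was at 13.7, 15.8, 15.4, 17.1 and 16.6 RPKM in DMSO and at 13.3, 12.9, 14.6, 15.7 and 15.8 RPKM in GW3965, a log2 fold change of -0.12 (limma adjusted p = 0.843). PPARG, the regulator of fat cell differentiation, was at 11.9, 14.0, 14.0, 11.8 and 11.5 RPKM in DMSO and at 12.4, 12.1, 11.7, 11.9 and 13.4 RPKM in GW3965. Its log2 fold change was -0.04 (limma adjusted p = 0.965). Both genes overlapped between conditions. PPARA was lower, at 1.525 ± 0.205 and 1.496 ± 0.175 RPKM. PPARD led the family as deposited RPKM (52.6% in DMSO). Over all 10 libraries, PPARG led by reads (63.1%) and per kilobase of principal transcript (80.3%). Of 17 PPAR target genes, which act in fatty acid oxidation and storage, 13 were tested and 2 passed, both higher, against 0.157% of all tested genes. They were CPT1A (0.53, limma adjusted p = 0.0139), which makes acylcarnitines for mitochondrial import, and SLC25A20 (0.64, limma adjusted p = 0.00333), which carries them across the inner membrane. An unadjusted p under 0.05 was found for 7 of the 13 (53.8%, all higher), against 6.99% of all tested genes. The conditions did not overlap for 6 of the 13 (46.2%, all higher), against 1.84% of all tested genes. The list's median log2 fold change was 0.15. Its highest value was PDK4 (1.06, limma adjusted p = 0.0649), which passed under 4 of 21 alternative settings, and its lowest FABP3 (-0.16). Without the 3 libraries that stood apart, 0 of the 13 passed, with CPT1A at 0.51 (limma adjusted p = 0.125) and SLC25A20 at 0.65 (limma adjusted p = 0.0857). CPT1A also missed the threshold without DMSO library 3 or GW3965 library 2, 3 or 4, at log2 fold changes of 0.52 to 0.54.

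The 3 COUP-TF genes overlapped between the conditions. NR2F1 was at 32.2, 31.7, 33.6, 44.9 and 39.5 RPKM in DMSO and at 29.2, 29.8, 37.4, 37.4 and 29.4 RPKM in GW3965. DMSO library 4, which had the lowest score on the first principal component (-21.9), was highest, and the log2 fold change was -0.15 (SE 0.12, limma adjusted p = 0.871). NR2F6 was at 18.3, 21.0, 23.2, 21.4 and 20.6 RPKM in DMSO and at 19.0, 17.7, 21.3, 21.1 and 21.4 RPKM in GW3965 (log2 fold change -0.05). NR2F2 was at 20.7, 15.4, 15.4, 20.3 and 18.3 RPKM in DMSO and at 21.3, 20.2, 19.5, 19.4 and 17 RPKM in GW3965 (log2 fold change 0.12). The within-condition variance of NR2F1 was 118 times that of counting alone, against a median of 9.10 over the tested members and 4.52 over all tested genes. NR2F1 shares 158 exonic bases with NR2F1-AS1 on the opposite strand.

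The REV-ERB genes encode heme-binding repressors of the circadian clock. NR1D1 (REV-ERBalpha) had the highest log2 fold change of the tested members. It was at 3.04, 2.87, 2.85, 2.68 and 2.62 RPKM in DMSO and at 3.84, 3.79, 2.68, 3.78 and 3.84 RPKM in GW3965. Of the GW3965 libraries, 4 lay above all DMSO libraries and library 3 lay within the DMSO range. The log2 fold change was 0.33 (SE 0.10, interval 0.11 to 0.55) and did not pass, with a limma adjusted p of 0.410. Without GW3965 library 3, the library that went against the rise, it was 0.43, with a limma adjusted p of 0.0566. That was the lowest over 21 alternative settings, in which the adjusted p of NR1D1 reached 0.718. NR1D1 shares 263 exonic bases with THRA on the opposite strand, and THRA was at 3.04 ± 0.220 and 2.92 ± 0.120 RPKM. NR1D2 (REV-ERBbeta) was at 10.0 ± 1.37 and 11.5 ± 1.05 RPKM (log2 fold change 0.20, limma adjusted p = 0.743). Of 16 circadian clock genes, all tested, 0 passed and the median was 0.01. The list ran from DBP (-0.23) to TEF (0.24, limma adjusted p = 0.206), both of the same family of clock output factors.

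**Figure D4:**
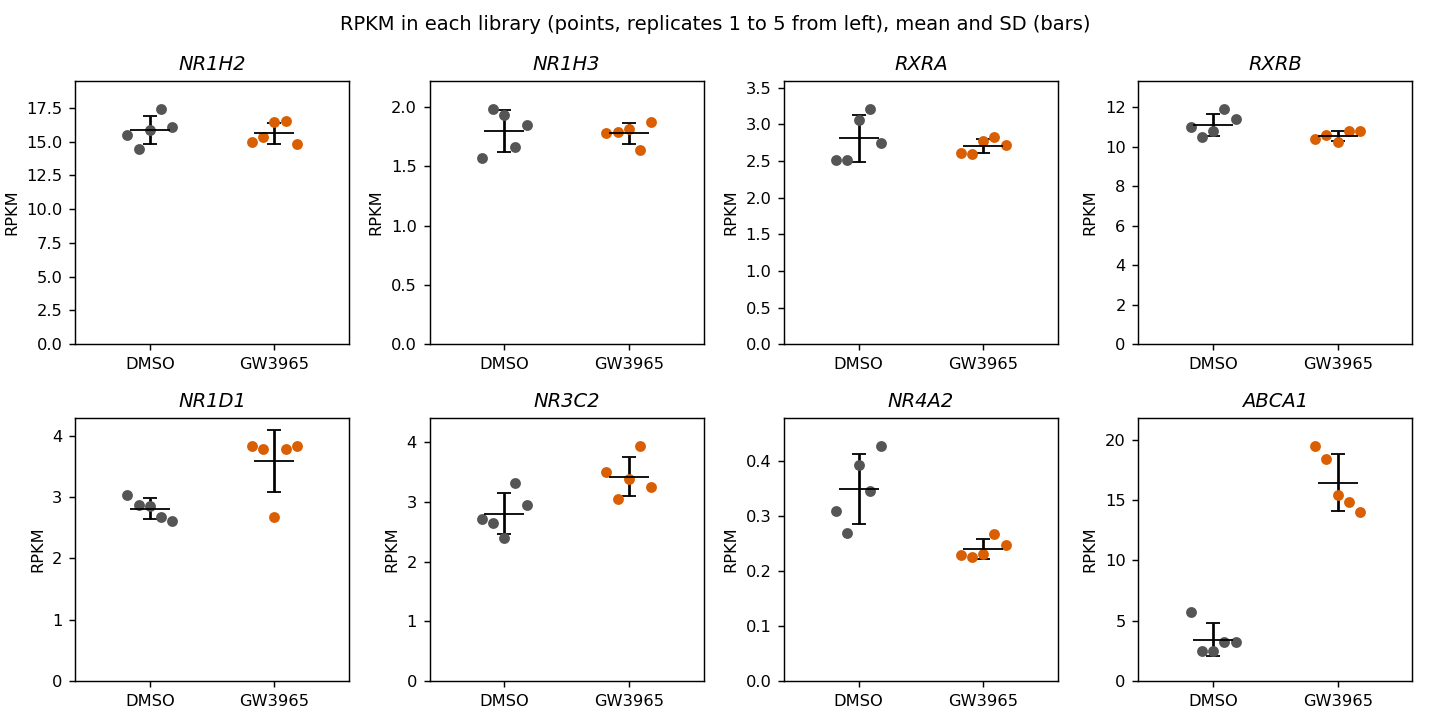
RPKM of 8 genes in each library (points, replicates 1 to 5 from left), with the mean and SD of 5 libraries (bars) and axes that start at 0. ABCA1 separates the conditions widely, NR4A2 narrowly, and NR1D1 does so except for GW3965 library 3 at 2.68 RPKM.

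Of the steroid receptors, the glucocorticoid and mineralocorticoid receptor genes were tested. NR3C2, the mineralocorticoid receptor gene, was at 2.71, 2.65, 2.39, 3.31 and 2.95 RPKM in DMSO and at 3.50, 3.06, 3.39, 3.94 and 3.24 RPKM in GW3965. The GW3965 libraries were higher on average and 3.06 and 3.24 RPKM lay below the highest DMSO library. Its log2 fold change of 0.28 (SE 0.10, interval 0.07 to 0.49) did not pass, with a limma adjusted p of 0.503. NR3C1, the glucocorticoid receptor gene, was at 3.24 ± 0.275 and 3.27 ± 0.327 RPKM. Of 12 glucocorticoid target genes, 9 were tested and 0 passed, with a median of 0.04. NFKBIA, an inhibitor of NF-kappaB, was highest (0.36, limma adjusted p = 0.0773) and FKBP5, a chaperone of the receptor, lowest (-0.16). The estrogen receptor genes were under the filter, with 0.307 RPKM for ESR2 and 0.0652 RPKM for ESR1. PGR, the progesterone receptor gene, had at most 1 read in any library.

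The retinoic acid receptor genes RARG and RARA averaged 5.70 and 4.11 RPKM, and RARB 0.173 RPKM. Their log2 fold changes were 0.03 for RARG and 0.09 for RARA. Of 20 retinoid genes, 8 were tested and 0 passed, with a median of -0.06. DHRS3, which reduces retinal to retinol, was lowest (-0.45, limma adjusted p = 0.210), and RDH11, a retinol dehydrogenase gene, was highest (0.18, limma adjusted p = 0.582). VDR, the vitamin D receptor gene, was at 1.28 ± 0.342 and 1.05 ± 0.187 RPKM (-0.24, limma adjusted p = 0.872). Of 17 genes that make, break down or carry receptor ligands, 5 were tested and 0 passed, with a median of 0.06. The rest were under the filter. Among these only DIO3 had no overlap between conditions, at 0.370 ± 0.0394 RPKM in DMSO and 0.164 ± 0.0791 RPKM in GW3965. Of the genes under the filter with more than 3 reads, 0.799% had no overlap.

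The remaining tested members were orphan or fatty acid-binding receptors. ESRRA, a regulator of mitochondrial genes, was at 7.11 ± 0.754 and 7.26 ± 0.344 RPKM. The testicular receptor genes NR2C1 and NR2C2 averaged 4.95 and 1.59 RPKM, with log2 fold changes of 0.09 and -0.09. HNF4G was at 1.06 ± 0.215 and 1.30 ± 0.183 RPKM (0.28, limma adjusted p = 0.759). NR2E3, a photoreceptor gene regulator, averaged 0.623 RPKM, and NR4A1, an immediate early gene, 0.578 RPKM.

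Of the 22 members under the filter, 17 had more than 3 reads in at least 1 library and were compared by a two-sided exact permutation test. NR4A2 (NURR1), an immediate early orphan receptor gene, was at 0.310, 0.270, 0.394, 0.345 and 0.428 RPKM in DMSO and at 0.229, 0.225, 0.231, 0.268 and 0.248 RPKM in GW3965. Every GW3965 library was below every DMSO library, by a narrow margin, on 32 to 57 reads per library. Absence of overlap in this direction was found for 0.443% of the 17392 genes under the filter, and in either direction for 0.799%. The log2 difference was -0.39, with an exact permutation p of 0.00794, the smallest that 5 against 5 allows. The adjusted permutation p over these genes was 0.993, and 0 of the 17392 passed. With this floor a gene could pass only if very many genes shared the smallest p, so the adjusted p does not decide for NR4A2. A permutation p under 0.05 was found for 4.47% of these genes. THRB, a thyroid hormone receptor gene, had 0.201 and 0.265 RPKM (exact permutation p = 0.0556).

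The other members compared in this way had exact permutation p-values of 0.143 or more. NR6A1, ESRRG, NR1I3, RORA and NR4A3 averaged 0.187 to 0.451 RPKM. NR1I3, the xenobiotic receptor gene CAR, shares 661 exonic bases with TOMM40L on the opposite strand. NR5A2, ESRRB, NR0B2, RORB, HNF4A, NR1I2 and NR1H4, the last encoding the bile acid receptor FXR, averaged 0.0453 RPKM or less. PGR, NR2E1 and NR5A1 had at most 3 reads in every library, and NR0B1 and RXRG had 0 reads, so a difference was not detectable at this depth.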

How the data were processed

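RNA of PC3 cells was measured in 10 libraries, 5 with DMSO and 5 with GW3965, grouped by sample title. Per the labels, the authors made stranded total RNA libraries after ribosomal RNA depletion (the molecule is labelled polyA RNA). The submitters' processing notes name bcl2fastq 2.20.0.422, cutadapt, HISAT2 2.1.0, HTSeq 0.11.2, DESeq2 1.22.2 and hg38, whereas the methods name a mouse genome; the gene identifiers are human. The authors deposited RPKM values. All values above 0 gave whole reads (tolerance 1e-06), and library scaling equalled median-of-ratios size factors. Intervals of fold changes come from the limma fit and measure only the spread between these libraries. Floors of 3 reads cover counting error only.

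Genes that averaged 0.5 RPKM or more over all libraries were tested with limma 3.58.1 (R 4.3.3, trend, two-sided) on log2(RPKM + 0.1), with Benjamini-Hochberg adjustment over 20402 genes and a threshold of 0.05. Members under the filter had exact permutation tests, adjusted over all 17392 genes under it with more than 3 reads. On data simulated for this comparison (20107 genes), limma recovered 19 of 75 changes of 0.5, 66 of 68 of 1 and 57 of 57 of 2 (log2). The simulation gave every gene the same assumed spread. Members and lists were chosen with earlier results of these data known. Values in every library are given for LXR and RXR genes, the 6 highest members, and members with an unadjusted p under 0.05 or without overlap; of each list, the genes that passed and both extremes are named, except that the extremes of the ligand genes are not reported here. Promoters are from RefSeq and lengths from GENCODE 29. Alternatives changed the pseudocount, filter, scaling, model, libraries and gene length.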

Additional observations from a re-analysis of the deposited data

Results flagged for a closer look

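Of 50 sets of 5 libraries (the 24 tested members and NR4A2 in each condition), 3 had a library whose gap to its nearest neighbour, as a share of the whole range, exceeded Dixon's critical value of 0.71. Chance flags about 1 in 20 groups, or 2.5 of 50. For NR1D1, GW3965 library 3 was lowest at 2.68 RPKM, against 3.78 to 3.84 RPKM in the other 4, a gap of 0.958 of the range on 267 reads. For NR2C2, DMSO library 5 was highest at 1.89 RPKM, against 1.53 to 1.62 RPKM, a gap of 0.73. For NR2E3, GW3965 library 1 was highest at 0.807 RPKM, against 0.552 to 0.601 RPKM, a gap of 0.781 on 89 reads.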

How the results depend on the processing

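The number of nuclear receptor genes that passed was 0 under all 21 alternatives, and the adjusted p ranged from 0.0566 to 0.718 for NR1D1 and from 0.179 to 0.803 for NR3C2. Of all tested genes, 32 passed, against 21 without a filter, 20 without the trend, 56 with library weights, 63 with voom on recovered reads, 18 without the 3 libraries that stood apart, and 17 to 38 when single libraries were left out. Counts fell by over 1.5 times without DMSO library 3 (18) and GW3965 library 2 (17), 3 (19), 4 (17) or 5 (21). LXR target genes numbered 4 without the 3 libraries and 6 when any 1 library was left out. PPAR target genes numbered 2, against 4 with voom and 3 with quantile normalization or library weights (PDK4 among them in each), 0 without the 3 libraries, and 1 to 3 when single libraries were left out, with CPT1A lost without DMSO library 3 or GW3965 library 2, 3 or 4. Of the glucocorticoid target genes, 1 (NFKBIA) passed with quantile normalization, library weights or voom, and 0 to 1 when single libraries were left out (1 without DMSO library 4). The log2 difference of NR4A2 was -0.38 (exact permutation p = 0.0571) without the 3 libraries, where few labellings remain, and the conditions still did not overlap.

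Fold changes near 0 turned direction: NR1H2 was 0.025 with library weights, NR1H3 was 0.0059 when scaled by total reads, and leaving out single libraries gave -0.053 to 0.013 for NR1H2, -0.055 to 0.024 for NR1H3, -0.082 to 0.0029 for RXRA and -0.071 to 0.00082 for PPARG. The share of NR1H2 was 91.2% by reads and 93.4% by principal transcript length, and that of RXRB 55.9% and 44.6%; both lengths were added after the data were seen. Causes other than the change of length or of samples were not tested.

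Replicate numbers gave no clear pairing of the samples: correlations of same-numbered libraries were 0.149, -0.0488, 0.0386, 0.16 and -0.138. GW3965 libraries 1 and 4 correlated best with the DMSO library of their own number, and libraries 2, 3 and 5 did not. The labels do not say whether equal numbers shared a culture, and these correlations cannot exclude it. With a replicate block, 16 of all tested genes passed, 0 nuclear receptor genes, 4 LXR target genes (MYLIP and SREBF1 lost) and 0 PPAR target genes (CPT1A and SLC25A20 lost), at fold changes that the block leaves as they were. With the same assumed spread for every gene, changes of 0.5 on the log2 scale were mostly missed in simulation. That spread was not measured on the receptor genes, so the simulation does not set their detection limit. Small changes of receptor genes may still not have been detectable.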
